A study of Homo sapiens with 12 samples.

Results

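The sites described here are stretches of RNA at which protein protection was found with both nucleases of the study, in most but not all replicates. They were chosen by rule from the authors' merged list of protected sites: a site had to overlap, by 1 nt or more on the same strand, a site in at least 2 of the 3 ssRNase replicate lists and at least 2 of the 3 dsRNase replicate lists, without being found in all 6. The mitochondrial genome and the contig Un_gl000220 were left out. This gave 7242 of the 293016 merged sites (2.47%), called shared sites below. A further 1972 sites outside those sequences were found in all 6 lists and are called the core.

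All libraries came from HEK293T, a long-established cell line of human embryonic kidney origin, fixed with 1% formaldehyde for 10 minutes, which was stopped with 125 mM glycine. The 12 libraries were made by protein interaction profile sequencing (PIP-seq) and form 4 groups of 3: footprint and digestion-control libraries for RNase ONE, which cuts unpaired RNA (ssRNase), and the same for RNase V1, which cuts paired RNA (dsRNase). In a footprint library the nuclease acted on RNA still cross-linked to protein. In a digestion control the protein was first removed with 1% SDS and proteinase K. No genotype, drug or time point differs between the groups. The cells are 1 cultured line, and whether replicates were separate cultures is not stated, so the p-values below measure the spread between these lists, which may be technical.

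RNA-binding proteins cover short stretches of the transcripts they contact, and a bound stretch is shielded from a nuclease that would otherwise cut it. A nuclease for unpaired RNA can only reveal protection where bare RNA would be cut, which is in loops and open stretches. A nuclease for paired RNA does so in helices. A site seen with both therefore holds, within the merged span, RNA that each enzyme digested less in the presence of protein. The transcripts at these positions were not assigned, because no annotation of the build of the lists (hg19) was used here, and no sequence is printed for the same reason.

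The 6 replicate lists held between 21561 and 209922 sites, and each sets 1 footprint library against the digestion control that shares its nuclease and number. The ssRNase lists were longer than the dsRNase lists, and ssRNase replicate 2 was the shortest of its nuclease with 57481 sites. The lists give positions and scores but no reads, so the depth behind a site is unknown.

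Most shared sites missed the core because of a single list. Of the 7242 sites, 4273 (59.0%) were found in 5 lists and 2969 (41%) in 4. ssRNase replicate 2 had no site at 3935 of them (54.3%), against 445 for ssRNase replicate 3 and 155 for ssRNase replicate 1. Among the dsRNase lists the number without a site was 2006, 1410 and 2260 for replicates 1, 2 and 3. In both nucleases the shortest list was thus the one most often without a site. The commonest pattern was absence from ssRNase replicate 2 alone (1368 sites), followed by absence from ssRNase replicate 2 and dsRNase replicate 3 together (1078 sites). The rarest 3 patterns, each with ssRNase replicate 1 and a dsRNase list missing, held 29 to 33 sites.

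**Figure D1:**
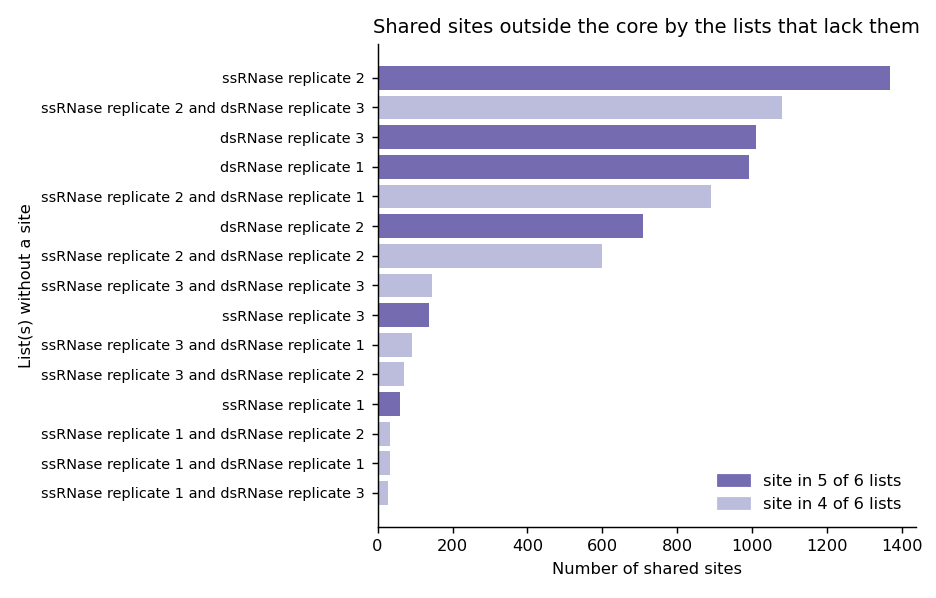
Number of shared sites (x axis) for each combination of lists that had no site there (y axis), with sites found in 5 lists in dark and those found in 4 lists in light purple. The 4 patterns that lack ssRNase replicate 2, alone or with a dsRNase list, include the 2 most frequent of all, and together hold 3935 of the 7242 sites.

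The number of sites itself follows from the lists that were required. With exactly 2 lists of each nuclease there were 2969 sites, just inside the rule, of median length 67.0 nt. With 2 ssRNase and 3 dsRNase lists there were 1566 sites (80 nt), and with 3 ssRNase and 2 dsRNase lists 2707 sites (82.0 nt). Just outside the rule lay 8257 sites with 2 ssRNase lists and 1 dsRNase list (59.0 nt), 2065 sites with 1 and 2 (55.0 nt) and the core of 1972 sites (107.5 nt). Sites thus became longer with each list added, which the merging brings about in part, since a merged site spans every replicate site it joins. When 1 list was left out and at least 2 of each nuclease were still required, 2862, 6642 and 3152 of the shared sites were left without ssRNase replicates 1, 2 and 3. Without dsRNase replicates 1, 2 and 3 the numbers were 3572, 2976 and 3826.

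Shared sites had a median length of 75 nt, with quartiles at 57.0 and 103.0 nt and a range from 20 to 778 nt. They joined between 4 and 19 replicate sites each, with a median of 5.0. At 1855 of them (25.6%) at least 1 list held several separate sites, so that the merged span was not protected from end to end in that list.

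Within shared sites the ssRNase lists recorded longer protected stretches than the dsRNase lists. Each list was measured over the shared sites at which it had a site, from 3307 to 7087, so these sites differ between lists. The median number of protected bases per shared site was 57, 48 and 50 nt in ssRNase replicates 1, 2 and 3. It was 36, 37 and 37 nt in the dsRNase replicates. Every ssRNase list lay above every dsRNase list, with means of 51.67 ± 4.73 nt and 36.67 ± 0.577 nt (SD, n = 3 lists each) and a difference of 15.0 nt (two-sided exact permutation p = 0.1; Benjamini-Hochberg adjusted 0.15 over the 3 comparisons planned, which were length, position and strand). With 3 lists against 3 no test of this kind can give less than 0.1, here or below, so none could pass 0.05. The dsRNase lists were close to each other, whereas ssRNase replicate 1 stood above the other ssRNase lists. The same difference can be put as a share of the merged span, which is itself built from the lists' sites, so that this is no further support. A list with a site at a shared site covered on average 72.83% ± 6.67 of its span with ssRNase and 51.33% ± 0.683 with dsRNase (SD, n = 3 lists each; two-sided exact permutation p = 0.1, adjusted 0.114 over the 25 comparisons added after seeing the data). Sites of the ssRNase lists were longer at shared sites (medians of 53.0, 47.0 and 47.0 nt) than elsewhere in the same lists (42.0, 44.0 and 42.0 nt). For the dsRNase lists this gap was small, with 35.0 nt in each list at shared sites and 33.0, 33.0 and 34.0 nt elsewhere. A longer site meets the overlap rule more readily, so these gaps are a description and no further support.

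**Figure D2:**
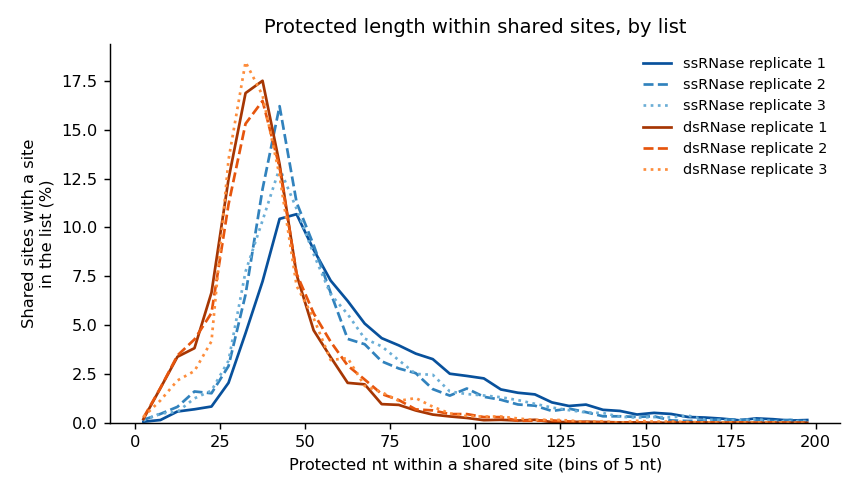
Share of shared sites (y axis, percent of those with a site in the list) by the number of bases the list protected within them (x axis, bins of 5 nt, shown up to 200 nt), with 1 line per list. The dsRNase lines (orange) peak to the left of the ssRNase lines (blue), with medians of 36 to 37 nt against 48.0 to 57.0 nt.

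The core showed the same order at greater length. There the lists protected a median of 85.0, 54.0 and 72.0 nt with ssRNase and 44.0, 46.0 and 46.0 nt with dsRNase. The step from shared to core sites was thus small in ssRNase replicate 2 (48.0 to 54.0 nt) and wide in ssRNase replicate 1 (57.0 to 85.0 nt). The step between the sets comes from the contrast that chose them and was not tested.

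Both nucleases protected overlapping but not equal stretches. Taken over the 3 lists of a nuclease, a shared site held a median of 67.0 ssRNase-protected and 46.0 dsRNase-protected bases, with 41 bases in common. Of all bases protected with dsRNase, 86.1% were also protected with ssRNase. In the other direction the share was 57.0%. Of the 617347 bases of all shared sites, 52.2% were protected with both nucleases, 39.3% with ssRNase alone and 8.44% with dsRNase alone. Every shared site had at least 1 base in common, which follows from the way overlapping sites were merged. A base protected in at least 2 lists of each nuclease, which merging does not require, was present in 6107 sites (84.3%), with a median of 27.0 such bases.

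The dsRNase stretch most often lay within the ssRNase stretch. Measured from the first to the last protected base over the lists of a nuclease, this nesting held at 4218 sites (58.2%). At 1788 sites (24.7%) the dsRNase stretch was displaced toward the 5′ end, and at 789 (10.9%) toward the 3′ end. The ssRNase stretch lay within the dsRNase stretch at 433 sites (5.98%), and both ended on the same bases at 14. Longer shared sites were made up of more sequence seen with ssRNase alone. Site length is itself built from the lists' stretches, and a long stretch holds a short one more readily. The nesting and the shares by length are therefore a description with no test. In sites of 1 to 50 nt, 80.8% of ssRNase-protected bases were also protected with dsRNase, against 69.1% at 51 to 75 nt, 57.8% at 76 to 100 nt, 48.6% above this up to 150 nt and 38.2% beyond 150 nt. The share of dsRNase-protected bases also protected with ssRNase moved less, from 92.8% in the shortest to 84.2% in the longest class.

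Lists of 1 nuclease drew the borders of a shared site more alike than lists of different nucleases. For a pair of lists, the bases protected in both were taken as a percentage of those protected in either. This was 63.0% to 64.4% for the 3 pairs of ssRNase lists, 54.3% to 56.1% for the 3 pairs of dsRNase lists and 40.8% to 42.3% for the 9 pairs across nucleases. No pair across nucleases reached the lowest pair within a nuclease. The 5′ borders of 2 lists lay a median of 6 to 7 nt apart within a nuclease and 11 to 13 nt apart across nucleases. The 3′ borders were 6 nt apart within and 12 to 14 nt apart across. Pairs share lists, and stretches of unequal length cannot overlap fully, so these values are a description with no test.

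**Figure D3:**
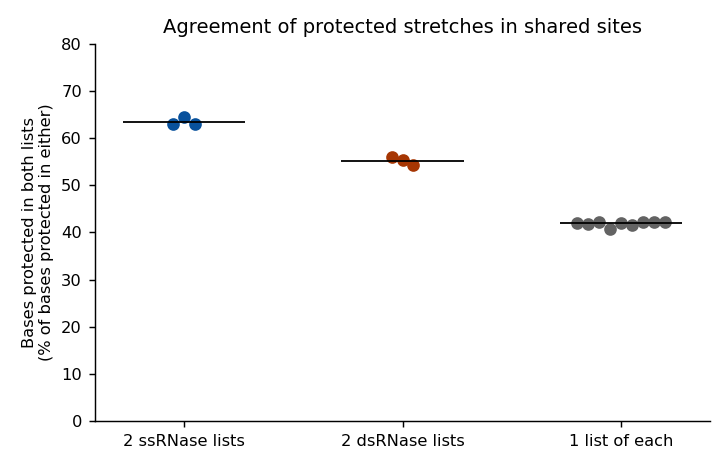
Bases protected in both lists of a pair as a percentage of the bases protected in either (y axis), over shared sites with a site in both lists, for pairs of ssRNase lists, pairs of dsRNase lists and pairs across nucleases. Each point is 1 pair and the line is the mean, at 63.5%, 55.3% and 41.9%.

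Protection with dsRNase lay nearer to the 5′ end than protection with ssRNase in shared sites of the minus strand, a lean not seen on the plus strand. Position was measured as the mean place of a list's protected bases, from 0% at the 5′ end to 100% at the 3′ end of the merged site. Over shared sites of both strands, each list taken where it had a site, it was 51.16%, 51.19% and 51.6% in the ssRNase lists. In the dsRNase lists it was 48.54%, 48.01% and 48.15%. The means were 51.32% ± 0.249 and 48.24% ± 0.274 (SD, n = 3 lists each; difference 3.08 percentage points, two-sided exact permutation p = 0.1, adjusted 0.15). On the minus strand, with 5395 sites, the means were 51.76% ± 0.426 with ssRNase and 47.42% ± 0.36 with dsRNase (SD, n = 3 lists each; difference 4.33 points, two-sided exact permutation p = 0.1), and the groups did not overlap. On the plus strand, with 1847 sites, they were 50.03% ± 0.747 and 50.64% ± 0.284 (SD, n = 3 lists each; difference -0.608 points, two-sided exact permutation p = 0.3), and the groups overlapped. The minus-strand value less the plus-strand value was 1.722 ± 1.05 points with ssRNase and -3.219 ± 0.228 with dsRNase (SD, n = 3 lists each; two-sided exact permutation p = 0.1), with no overlap between the nucleases. After adjustment over the added comparisons, a p of 0.1 becomes 0.114 and one of 0.3 becomes 0.312.

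The lean can also be put as distances from the ends of the merged span. These come from the same stretches, so they are no further support. On the minus strand a dsRNase stretch began on average 19.49 ± 0.418 nt after the 5′ end and stopped 23.52 ± 0.0709 nt before the 3′ end of the shared site (SD, n = 3 lists). For ssRNase the distances were 13.13 ± 3.45 and 10.3 ± 3.57 nt (SD, n = 3 lists). The ssRNase stretches thus reached nearer to both ends, and more so at the 3′ end. Reaching nearer to both follows in part from their greater length, since the span is built from the lists' sites. On the plus strand the dsRNase distances were nearly equal, at 24.35 ± 0.392 and 23.03 ± 0.25 nt (SD, n = 3 lists), as were those of ssRNase at 13.78 ± 6.92 and 13.39 ± 5.91 nt (SD, n = 3 lists). By arrangement, the dsRNase stretch was displaced toward the 5′ end at 26.9% and toward the 3′ end at 7.51% of minus-strand sites, against 18.2% and 20.8% of plus-strand sites.

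**Figure D4:**
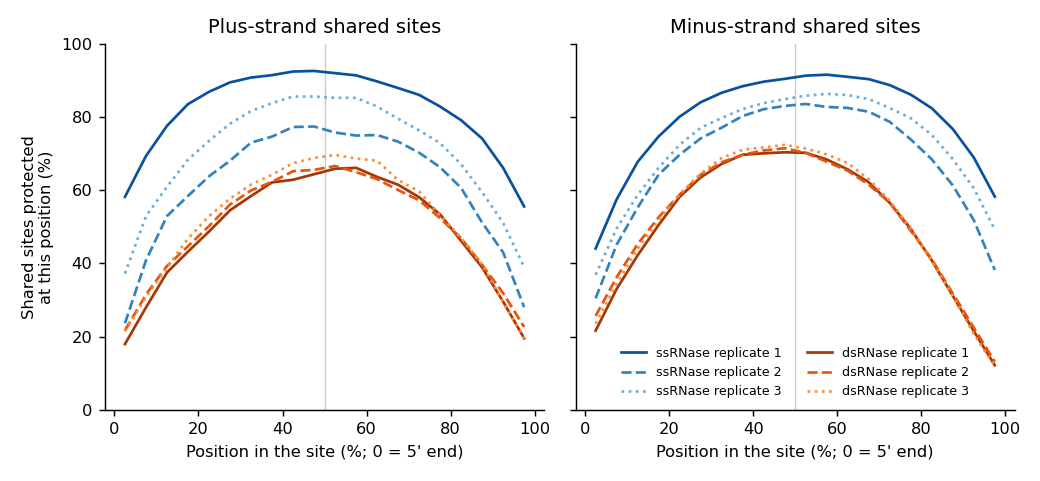
Percentage of shared sites protected at each place (y axis; of those with a site in the list) along the site from its 5′ to its 3′ end (x axis, percent of site length), for plus-strand sites on the left and minus-strand sites on the right, with 1 line per list. On the minus strand 42.23% to 45.27% of sites were protected with dsRNase at 12.5% of the length and 31.12% to 31.81% at 87.5%, while on the plus strand these values were 37.52% to 39.31% and 38.95% to 39.7%.

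Core sites, which were measured in the same libraries at other positions, had a similar difference between strands. On the minus strand their mean position was 51.84% ± 0.616 with ssRNase and 47.93% ± 0.0545 with dsRNase, and on the plus strand 50.65% ± 0.554 and 50.54% ± 0.0802 (SD, n = 3 lists each; two-sided exact permutation p = 0.1 and 0.8). The lean was thus seen in both sets. Whether it arises in digestion, in mapping or in site calling was not tested.

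Shared sites lay mostly on the minus strand of the genome, at 5395 of 7242 (74.5%), against 57.7% in the whole merged list. This share went with the number of dsRNase lists. It was 52.7% to 55.6% for sites of ssRNase lists alone, 67.2% to 72.2% with 1 dsRNase list and 70.9% to 79.3% with 2 or 3. Within the shared sites it was 71.1% for those with 2 lists of each nuclease, 76.3% with 2 ssRNase and 3 dsRNase lists and 77.1% with 3 and 2. The core stood at 78.0%. All 23 chromosomes (1 to 22 and X) had more than 50% of their shared sites on the minus strand, and on all 23 the share was higher than in the whole list. It ran from 65.9% on chromosomes 4 and X to 87.4% on chromosome 13.

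The strand balance of the lists within shared sites was set beside that of their other sites. The minus strand held 74.66%, 77.72% and 73.65% of the ssRNase sites there, against 55.94%, 57.73% and 57.47% of the other sites of those lists. For dsRNase it held 76.32%, 71.86% and 76.15% at shared sites, against 79.69%, 61.11% and 77.93% elsewhere. The share was thus higher at shared than at other sites in each ssRNase list, and among the dsRNase lists clearly so only in replicate 2. A shared site must hold dsRNase sites on its strand, and these lay mostly on the minus strand elsewhere too. The rule thus favours ssRNase sites of the minus strand, and nothing is read from this contrast. The means at shared sites, 75.34% ± 2.12 with ssRNase and 74.78% ± 2.52 with dsRNase (SD, n = 3 lists each), differed by 0.567 points, less than either SD (two-sided exact permutation p = 0.8, adjusted 0.8). In the 2969 sites with exactly 2 lists of each nuclease, an alternative added after seeing the data, the difference was 3.01 points (two-sided exact permutation p = 0.7). The sign of this small difference turned without any 1 of the ssRNase lists (from -0.3508 to -0.1461 points). Each shared site had to hold sites of both nucleases on 1 strand, so the rule itself makes the nucleases alike here and nothing is read from this comparison. Why the minus strand is favoured was not tested.

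**Figure D5:**
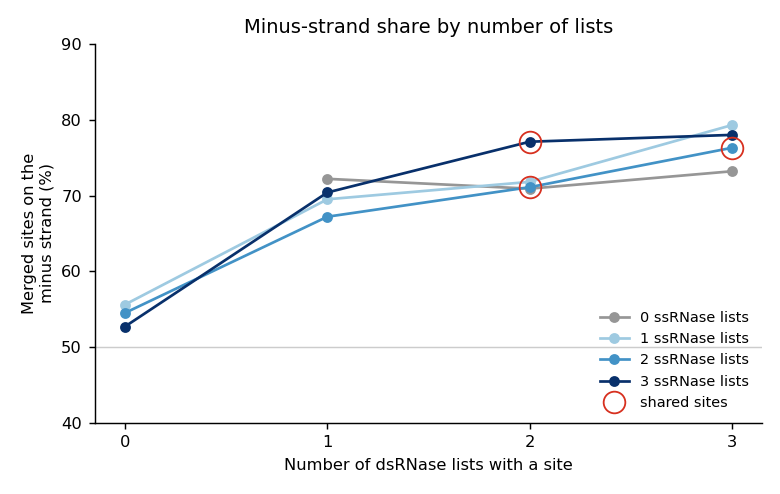
Percentage of merged sites on the minus strand (y axis, from 40% to 90%) by the number of dsRNase lists with a site (x axis), with 1 line for each number of ssRNase lists. Red rings mark the 3 combinations that make up the shared sites, at 71.1%, 76.3% and 77.1%, and all sites without a dsRNase list lie between 52.7% and 55.6%.

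Chromosomes contributed to the shared sites much as they did to the whole list. Chromosome 1 held 765 (10.6%, against 9.71% of the whole list), chromosome 17 held 500 (6.9% against 6.02%) and chromosome 5 held 486 (6.71% against 6.67%). Chromosome 19, with 485 sites (6.7% against 5.73%), and chromosome X, with 296 (4.09% against 3.07%), held somewhat larger parts than of the whole list. Chromosome 3 held a smaller one, with 289 sites (3.99% against 5.42%). The core leaned further to chromosomes X (6.44%) and 11 (9.23%) than the shared sites did (4.09% and 6.48%). Sites of 1 transcript are not independent of each other, so these shares carry no test.

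Most shared sites had no other shared site in their window of the genome, though most had other merged sites nearby. A small number of windows held many shared sites. In stranded windows of 10000 bp, 4076 of the 7242 sites (56.3%) were the only shared site of their window. The other sites were spread over 1188 windows, of which 83 held at least 5, with 533 sites in all (7.36%). Of these 83 windows 69 were on the minus strand. A further shared site lay within 1000 nt on the same strand for 1668 sites (23%), and a core site for 783 (10.8%). A further site of the same set lay as near for 26.0% of core sites. The share was 26.5% for sites with at least 2 dsRNase and no ssRNase lists, and 55.1% for those with at least 2 ssRNase and no dsRNase lists. These shares also depend on how many sites a set holds. Any other merged site was nearby for all but 851 of the shared sites (11.8%), against all but 22.5% of the whole list. The median number of merged sites within 1000 nt was 4.0 for shared sites, 5.0 for core sites and 2.0 for the whole list. Sites with at least 2 dsRNase and no ssRNase lists were much like the shared sites, with a median of 4.0 and 12.8% without a neighbour. For sites with at least 2 ssRNase and no dsRNase lists these values were 2.0 and 19.3%. Counts of neighbours also depend on how many sites a list has, and transcript levels were not analysed here.

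The window with the most shared sites, X:73050001-73060000 on the minus strand, held 16 among its 78 merged sites, beside 19 core sites. Shared sites were seen there at 16, 6 and 15 positions in ssRNase replicates 1, 2 and 3 and at 12, 13 and 10 in the dsRNase replicates. In protected bases this came to 1212, 296 and 928 with ssRNase and 518, 548 and 340 with dsRNase. The next window on that strand (73060001 to 73070000) held 12 shared and 23 core sites. Between 73057479 and 73062459, 14 shared sites followed each other with gaps of at most 1000 nt, the run with the most sites.

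Another 3 windows held 12 shared sites each. On the minus strand of chromosome 7 from 26230001 to 26240000 they protected 1136, 250 and 476 bases in the ssRNase lists and 600, 683 and 479 in the dsRNase lists, beside 7 core sites. In this window the dsRNase lists thus recorded as many bases as 2 of the 3 ssRNase lists or more. In the plus-strand window of chromosome 11 from 65190001 to 65200000 the shared sites were long, with a median of 148.0 nt, and protected 1681, 506 and 1164 bases with ssRNase and 366, 568 and 597 with dsRNase, beside 15 core sites. The plus-strand window of chromosome 16 from 2810001 to 2820000 had only 1 core site beside its 12 shared sites. There ssRNase protected 1099, 212 and 1046 bases and dsRNase 161, 411 and 500, with dsRNase replicate 1 low and present at 5 of the 12 sites. In that window 11 sites formed a run over 5233 nt from 2813051 to 2818283.

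The other 5 of the 10 leading windows were on minus strands. Chromosome 1 had 10 shared and 6 core sites from 35650001 to 35660000, and 9 and 7 in the adjoining window from 35640001. Chromosome 9 had 10 shared and 4 core sites from 111550001 to 111560000. Chromosome 7 had 9 shared sites and no core site from 7120001 to 7130000. Chromosome 17 had 9 shared and 2 core sites from 62490001 to 62500000. Chromosome 22 had the same number, 9 shared sites beside 4 core sites, from 38880001 to 38890000, and was placed after these only by the order of the chromosomes. In the 10 leading windows shared sites made up 13.9% to 36.4% of the merged sites, and ssRNase replicate 1 had a site at every shared site. Windows rich in shared sites were therefore not all rich in core sites.

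The 5 longest shared sites were all long stretches in the ssRNase lists with short pieces in 2 dsRNase lists. The longest, 778 nt at 11:65211795-65212572 on the plus strand, was protected over 771, 630 and 650 nt in ssRNase replicates 1, 2 and 3. In the dsRNase lists 0, 54 and 151 nt were protected, the latter in 5 separate pieces. It joined 16 replicate sites. The second, 460 nt on the minus strand of chromosome 9 from 139939621 to 139940080, had 282, 194 and 457 nt with ssRNase and 0, 49 and 19 nt with dsRNase. The third lay on the minus strand of chromosome 10 from 75458940 to 75459346, with 406, 286 and 310 nt with ssRNase and 0, 53 and 102 nt with dsRNase. The others were 406 nt on the plus strand of chromosome 15 (21938663 to 21939068) and 392 nt on the minus strand of chromosome 2 (202030483 to 202030874). All 5 were present in 3 ssRNase lists and 2 dsRNase lists, and in all 5 the dsRNase stretch lay within the ssRNase stretch. They show how little of a long merged span need be shared between nucleases, with 198, 49, 102, 122 and 80 bases in common in that order.

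The shared sites that scored best were far shorter, from 50 to 129 nt. The score is the authors' own value per site, and it was used only as a percentile within a list. The highest mean percentile, 99.192, belonged to an 85 nt site on the minus strand of chromosome 5 from 32125170 to 32125254. It was protected over 75 and 78 nt in ssRNase replicates 1 and 3 and over 60, 40 and 40 nt in the dsRNase replicates, and was not listed in ssRNase replicate 2. The second was a 54 nt site on the minus strand of chromosome 11 from 62620455 to 62620508, with 52 and 53 nt in ssRNase replicates 1 and 3 and 41, 45 and 43 nt with dsRNase. Its dsRNase stretch began at the first base of the site and ended at base 45. The third, of 50 nt on the minus strand of chromosome 10 from 18297496 to 18297545, had 49, 47 and 49 nt with ssRNase and 47 and 36 nt in dsRNase replicates 1 and 3. The others were 129 nt on the plus strand of chromosome 2 (122288461 to 122288589) and 107 nt on the minus strand of chromosome 1 (234543802 to 234543908). In 3 of the 5 the list without a site was ssRNase replicate 2. That list had no site at 54.3% of all shared sites, and was the only list without one at 18.9%. Nothing is read from so few sites.

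Over all shared sites the scores stood above the middle of their lists. The median percentile was 78.3, 63.6 and 77.1 in the ssRNase lists and 58.8, 60.6 and 57.8 in the dsRNase lists. Other sites of the same lists had medians between 43.3 and 50.1. Core sites ranked higher again, with medians of 92.8, 73.7 and 88.6 with ssRNase and 77.2, 77.9 and 77.0 with dsRNase. In each of the 6 lists the shared sites therefore lay between the core and the rest. The score comes from the contrast that chose the sites, so this is a description and no test was made. Percentiles are not set against each other between nucleases, because shared sites form unlike parts of their lists. Shared sites made up 22.6% to 25.0% of the sites of each dsRNase list, but 3.78%, 6.14% and 4.39% of ssRNase replicates 1, 2 and 3.

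Shared sites faced protection on the opposite strand about as often as the whole list did. A merged site overlapped the same bases on the other strand at 448 of them (6.19%), against 6.29% of the whole list, 9.38% of the core, 14.1% of sites with at least 2 ssRNase and no dsRNase lists and 1.83% of sites with at least 2 dsRNase and no ssRNase lists. The facing site was found in at least 2 ssRNase lists and no dsRNase list in 305 cases. In 22 cases it was another shared site and in 16 a core site. Sites of ssRNase lists alone also make up most of the merged list, so nothing particular to the shared sites is read from these counts.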

How the data were processed

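The submitters' processing notes name cutadapt 0.9.5, TopHat2 2.0.9 and build hg19. CSAR and a false discovery rate of 5% stand in the names the authors gave the deposited lists. Each replicate list sets a footprint library against its digestion control, per the labels. The score is the authors' deposited value per site, on an unstated scale, and was ranked within lists only. Equal scores received their mean rank. Such ties occur, for example at percentile 29.069 in dsRNase replicate 2 and 43.727 in dsRNase replicate 3. The merged list the authors deposited repeats, as its other values, the scores of the replicate sites it joins. Of it, positions and site names were used. The 2 merged lists of a single nuclease were not used. The treatment of multiply mapping reads was not analysed here.

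Positions were read as 1-based and inclusive. Sites overlapped where they had 1 nt or more in common on a strand. The replicate sites that the authors name in each merged site gave the same membership (0 merged sites differed). No list site reached beyond its shared site. Protected bases were counted per list within each shared site, and shared sites without a site in a list were left out of its values. Values per list were compared between nucleases by a two-sided exact permutation test over 3 and 3 lists, with Benjamini-Hochberg adjustment separately over 3 planned comparisons and 25 added after seeing the data. Named windows and sites followed a set rule: the 10 windows of 10000 bp with the most shared sites, the 5 longest and the 5 with the highest mean score percentile. Chromosome 22 was named outside it, as a tie. The rule, the sites and the comparisons were chosen with earlier results of these data known. The reference at hand is of another build, so genes and sequences were not analysed here. The overlap code was checked on simulated data, where 0 of 360000 decisions differed from a base-by-base count. Python 3.11.15, numpy 2.4.6, pandas 2.3.3 and matplotlib 3.10.9 were used.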

Additional observations from a re-analysis of the deposited data

How the results depend on the processing

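With the better-scoring 50% of each list 2895 sites met the rule (2137 of them among the 7242), and with all lists cut by score to the shortest length of 21561 sites 2142 did (1606 among the 7242). Where scores tied at a cut, sites were kept in order of chromosome name and start. Fewer sites per list account for lower numbers by construction. Leaving out 1 list left 2862 to 6642 sites. The difference in protected length kept its direction under all 16 alternatives run for it, and was 23.33 nt with equal list lengths against 15.0 nt. Not all of these could change it. The sites named by the authors were the same sites, and the replicate block described below alters only the p-value. The position difference turned on the plus strand alone (-0.6079 points), chosen after seeing the data, and otherwise kept its direction. Measured within the stretch of at least 2 ssRNase lists, also chosen after seeing the data, it was 10.74 points. That stretch is set by the ssRNase lists themselves and is not the merged site. The value is thus on another scale, and its size cannot be set against 3.081 points. The minus-strand difference turned with equal list lengths (-0.2342 points) and ran from -0.3508 to 1.407 points when 1 list was left out, and was 3.01 points over sites with exactly 2 lists of each nuclease. The mean share of the bases of an ssRNase list also protected with dsRNase (61.54%) was 60.01% at equal lengths and 58.93% to 62.55% when 1 list was left out. For shifts left without a stated reason, the cause was not tested. With a replicate block (signs permuted within replicate numbers) the length difference of 15.0 nt and the position difference of 3.081 points had an exact p of 0.25, the smallest that 3 pairs allow, and the minus-strand difference of 0.5669 points 1.0. Lists of the same number did not deviate together over core sites (r from -0.0579 to 0.013, against -0.0618 to 0.105 for lists of other numbers). A correlation over sites cannot show a shared origin that shifts whole lists. Whether the numbers pair the lists is therefore not settled. Without read counts, depth cannot be told apart from true absence where a list has no site.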

Other observations

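At 1135 shared sites no base was protected in at least 2 lists of each nuclease, although each of them had a base protected in at least 1 list of each. The window of chromosome 4 from 770001 to 780000 on the minus strand held 7 shared sites of unusual length, with a median of 208.0 nt against 75 nt for all. On the minus strand of chromosome 5, 7 shared sites followed each other within 1833 nt, from 140698297 to 140700129. These loci were picked after their values had been seen.

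The lists place 4 shared sites on chromosome Y. The longest of them, 94 nt on the minus strand from 15435048 to 15435141, was protected over 77 and 94 nt in ssRNase replicates 1 and 3 and over 63 and 54 nt in dsRNase replicates 2 and 3. Whether these cells carry the chromosome, or reads at these positions map elsewhere, was not tested, so no RNA of chromosome Y is inferred.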
